A study of Mus musculus with 11 samples.

Results

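The 7 genes described here encode the TRAIL and Fas death ligands and the receptors that bind them in the mouse: the ligands Tnfsf10 (TRAIL) and Fasl, the death receptors Tnfrsf10b (the mouse TRAIL receptor, DR5) and Fas, the membrane decoy receptors Tnfrsf22 and Tnfrsf23, and Tnfrsf11b (osteoprotegerin), a secreted receptor that binds TRAIL and the bone factor RANK ligand. They were chosen by symbol. Each gene was read from the probe set that the platform annotation pairs with that symbol alone, and all 7 had exactly 1 such probe set, out of 19938 genes with one. No filter on low values was applied. The arrays measured whole-liver RNA of male C57/BL6 mice on a chow diet, 8 to 9 weeks of age.

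The 11 arrays cover 4 genotypes. NemoΔhepa/TRAIL-/- mice (Nemo/TRAIL dKO, 2 arrays) lack Nemo in hepatocytes and Tnfsf10 in every cell. NemoΔhepa/TNFR1-/- mice (Nemo/TNFR1 dKO, 3 arrays) lack Nemo in hepatocytes and the TNF receptor Tnfrsf1a in every cell. NemoΔhepa mice (Nemo KO, 3 arrays) lack only hepatocyte Nemo, and the remaining 3 arrays are of wild type mice (WT). The hepatocyte deletion was made from a loxP-flanked Nemo gene, whose Cre driver the labels do not name, and liver cells other than hepatocytes keep Nemo by design. The labels do not say whether an array holds 1 mouse or pooled mice, so the p-values below measure only the spread between these samples.

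TRAIL and Fas ligand are carried mainly by natural killer cells, T cells and other immune cells. When they cluster Tnfrsf10b or Fas, the death domains of these receptors recruit the adaptor FADD and caspase-8, and in hepatocytes the signal usually needs amplification through the mitochondria. NF-κB, which Nemo helps to activate, raises genes that hold this cascade in check, and hepatocytes of normal liver are known to be highly sensitive to Fas. Tnfrsf22 and Tnfrsf23 carry no death domain and can bind TRAIL without passing on a death signal, while osteoprotegerin takes up the ligand outside the cell.

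Tnfrsf10b was 2.57-fold to 3.07-fold higher in the Nemo-deficient genotypes than in WT, and it was the only one of the 7 genes called in all 3 comparisons with WT. Tnfrsf11b rose in Nemo/TNFR1 dKO by 0.46 ± 0.10 log2 units (SE) over WT. Fas, Fasl, Tnfrsf22, Tnfrsf23 and Tnfsf10 passed the test in no comparison. A gene was called at an adjusted p below 0.05 in a limma fit over all 35556 probe sets. With that rule 1 of the 7 genes was called in Nemo/TRAIL dKO against WT, where 7.55% of all probe sets were called. In Nemo/TNFR1 dKO against WT 2 of the 7 were called, beside 9.18% of all probe sets, and in Nemo KO against WT 1 of the 7, beside 9.29%. All these calls were increases. The median difference over the 7 genes was 0.00, 0.02 and -0.03 log2 units in these 3 comparisons, which share the WT arrays, beside -0.05, -0.04 and -0.05 over all probe sets.

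No member was called between Nemo-deficient genotypes. In Nemo/TRAIL dKO against Nemo KO 0.00562% of all probe sets were called, and 0 of the 7 genes had even an unadjusted p below 0.05. In Nemo/TNFR1 dKO against Nemo KO the share was 0.0337%, and 1 gene, Tnfrsf11b, had such an unadjusted p. In Nemo/TRAIL dKO against Nemo/TNFR1 dKO the share was 0.0478%, and 2 genes, Tnfsf10 and Tnfrsf11b, had one. The plot of single-array values shows how far Tnfrsf10b stands from the other 6 genes.

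**Figure D1:**
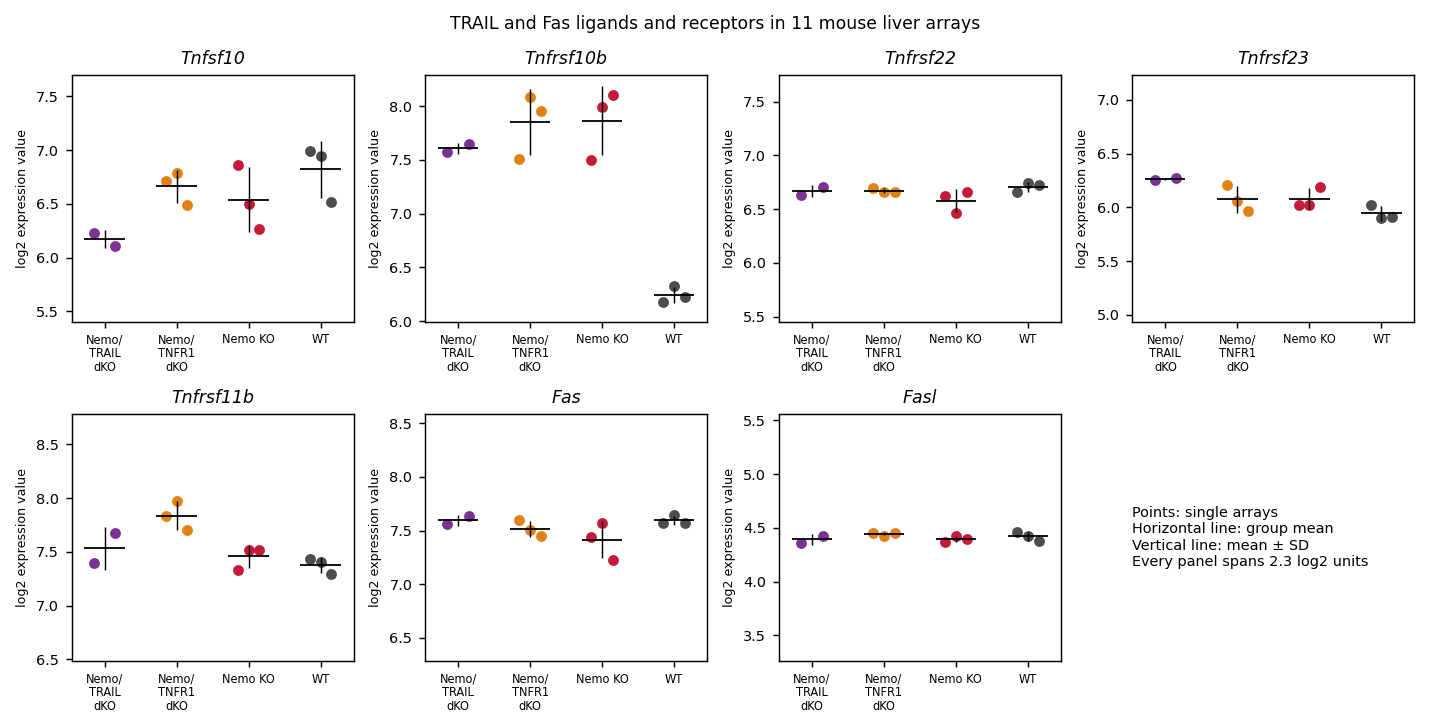
Log2 expression values of the 7 genes (vertical axis, every panel spanning the same number of log2 units) by genotype (horizontal axis), with a point for each of the 11 arrays, a horizontal line at the group mean and a vertical line for the mean ± SD. The Nemo-deficient arrays of Tnfrsf10b sit between 7.50 and 8.11, all above the WT arrays at 6.18 to 6.33, while the points of Fasl stay between 4.36 and 4.46.

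Some measurements on the arrays themselves bear on these values. The array descriptions begin with a code of unstated meaning, the same for Nemo KO as for WT and another one for each double knockout. Anything it marks cannot be told apart from the double knockout genotypes. The summed level of 10 hepatocyte markers was taken as the mean log2 value minus the WT mean. It lay between -0.05 and -0.01 in the Nemo/TRAIL dKO arrays, -0.10 and -0.02 in Nemo/TNFR1 dKO, -0.07 and -0.03 in Nemo KO, and -0.03 and 0.02 in WT. None of these markers was called in a comparison with WT. All read near the top of the arrays, with F9 lowest at percentile 95.4 of the mean signal. Whether signals this high would show a loss of hepatocyte RNA was not tested. The mean of 8 pancreatic acinar markers relative to the WT mean lay between -2.22 and -2.001 in the 8 Nemo-deficient arrays, against -1.80, -1.93 and 3.73 in WT replicates 1, 2 and 3.

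The targeted genes gave a partial check of the labels. The deleted part of each gene is not stated in the labels, and a probe set outside it checks nothing. Ikbkg, which encodes Nemo, read 8.12 to 8.31 in the 5 double knockout arrays and 8.34 to 8.56 in Nemo KO, against 8.60 to 8.73 in WT. It fell against WT by 0.41 for Nemo/TRAIL dKO (adjusted p = 0.0239) and by 0.45 for Nemo/TNFR1 dKO (adjusted p = 0.00818), and in Nemo KO it differed by -0.24 (adjusted p = 0.106). Tnfrsf1a read 9.95 to 10.19 in Nemo/TNFR1 dKO, against 10.19 to 10.41 in Nemo KO, a difference of -0.27 that did not pass (adjusted p = 0.586). It read 9.93 to 10.09 in WT, so the mice labelled TNFR1-/- were no lower than WT (difference 0.07, adjusted p = 0.670). Against WT Tnfrsf1a was higher by 0.43 ± 0.10 (SE) in Nemo/TRAIL dKO (adjusted p = 0.0314) and by 0.35 ± 0.09 in Nemo KO (adjusted p = 0.0401). Of the 11 fits that each omit an array, these calls held in 7 and 4. The Ikbkg calls held in 7 for Nemo/TRAIL dKO and in all 11 for Nemo/TNFR1 dKO. The Tnfrsf1a probe set thus does not separate the Nemo/TNFR1 dKO label from WT. The third targeted gene is Tnfsf10 itself.

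Tnfsf10, the TRAIL ligand, read 6.23 and 6.11 log2 units in the 2 Nemo/TRAIL dKO arrays, 6.71, 6.78 and 6.49 in Nemo/TNFR1 dKO, 6.86, 6.49 and 6.26 in Nemo KO and 6.996, 6.95 and 6.51 in WT. Both Nemo/TRAIL dKO arrays were the lowest of the 11, and the Nemo/TNFR1 dKO, Nemo KO and WT arrays overlapped. The group means ran, from low to high, in the order Nemo/TRAIL dKO, Nemo KO, Nemo/TNFR1 dKO and WT, and no neighbours in this order passed the test of their difference. Relative to WT the Nemo/TRAIL dKO level was -0.65 ± 0.19 log2 units (SE, 95% interval -1.07 to -0.22, adjusted p = 0.0749), and it did not pass. Against Nemo KO it was -0.37 (interval -0.79 to 0.06, adjusted p = 1), and against Nemo/TNFR1 dKO it was -0.49 (interval -0.92 to -0.07, adjusted p = 0.932). The probe set still gave a signal in mice labelled TRAIL-/-, and the labels do not say which part of the transcript it reads. Without WT replicate 3 the fall against WT was -0.80 and passed (adjusted p = 0.0348), and without Nemo KO replicate 1 it also passed (adjusted p = 0.0478). It passed under 2 of the 7 other settings as well. These were a block for replicate number (adjusted p = 0.00892) and single-symbol probe sets only (adjusted p = 0.0354). That the replicate numbers pair the samples was not established. The single-symbol setting left the difference at -0.65 and took fewer probe sets into the adjustment.

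With the ligand gene intact, Tnfsf10 showed no called change. Its difference between Nemo KO and WT was -0.28 log2 units (interval -0.66 to 0.10, adjusted p = 0.338), and between Nemo/TNFR1 dKO and WT it was -0.16 (interval -0.54 to 0.23, adjusted p = 0.636). Tnfsf10 is known to respond to interferon. Of 9 measured interferon-stimulated genes 8 rose in Nemo/TRAIL dKO against WT, 4 in Nemo/TNFR1 dKO and 5 in Nemo KO, and none fell, with medians of 1.08, 0.65 and 0.67 log2 units. Over all probe sets 7.55%, 9.18% and 9.29% were called in these comparisons. Without WT replicate 3 the counts of interferon-stimulated genes that rose were 6, 4 and 4, with 1 gene lower in Nemo/TNFR1 dKO. Without Nemo/TRAIL dKO replicate 1 the count in that genotype was 3. Usp18, which removes the ubiquitin-like protein ISG15 from its targets, rose by 1.96 ± 0.15, 1.63 ± 0.13 and 1.80 ± 0.13 log2 units (SE) in the same order of comparisons, and Oasl2, an antiviral protein of the oligoadenylate synthetase family, by 1.58 ± 0.15, 1.20 ± 0.14 and 1.23 ± 0.14. Irf7, a transcription factor that drives interferon genes, rose by 1.30 ± 0.23, 1.02 ± 0.20 and 1.09 ± 0.20.

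The sequences upstream of Tnfsf10, Fas and Fasl are shown because Tnfsf10 is a known interferon responder and Fas a known p53 target, and neither was called beside those lists, while Fasl is the ligand of Fas. They are the 250 bases before the transcript start used in the RefSeq promoter table (GRCm38.p6), which for Fas lies a few bases inside the outermost annotated end of the gene, 5′ to 3′ on the gene's own strand, at chr3:27316827-27317076 (plus strand) for Tnfsf10, chr19:34290409-34290658 (plus strand) for Fas and chr1:161788496-161788745 (minus strand) for Fasl. Capitals mark a match to any of 5 motifs.
Tnfsf10: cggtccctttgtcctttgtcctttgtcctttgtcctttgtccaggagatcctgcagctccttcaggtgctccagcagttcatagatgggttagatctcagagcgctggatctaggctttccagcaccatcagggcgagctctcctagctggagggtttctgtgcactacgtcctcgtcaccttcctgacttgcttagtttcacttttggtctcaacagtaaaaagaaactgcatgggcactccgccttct
Fas: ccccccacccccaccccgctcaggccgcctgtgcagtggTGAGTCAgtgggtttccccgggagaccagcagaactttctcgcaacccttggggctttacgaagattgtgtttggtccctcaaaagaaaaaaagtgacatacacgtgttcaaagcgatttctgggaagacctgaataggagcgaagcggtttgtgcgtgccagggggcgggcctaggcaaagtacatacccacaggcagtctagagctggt
Fasl: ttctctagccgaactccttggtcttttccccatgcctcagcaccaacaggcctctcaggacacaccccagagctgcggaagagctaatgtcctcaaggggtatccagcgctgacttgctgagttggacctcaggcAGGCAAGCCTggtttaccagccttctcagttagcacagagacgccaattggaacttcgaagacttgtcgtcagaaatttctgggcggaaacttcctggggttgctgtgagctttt

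The motifs were searched on both strands, and matches to different motifs could overlap. The core of the interferon-stimulated response element (GAAANNGAA) was present in 7.15% of 32536 distinct upstream windows of this length and in none of these 3. The AP-1 site (TGANTCA) was present in 6.73% of windows and matched in Fas, 211 to 205 bases before that transcript start. The p53 half-site was present in 7.12% and matched in Fasl, 115 to 106 bases before the start. The NF-κB consensus (3.92% of windows) and the TATA box (TATAAA, 12.31%) were in none of the 3. A match describes letters only and is neither a binding site nor a cause. Of the 7 genes 4 matched the sequence table, Tnfrsf23 being the fourth, and Tnfrsf10b, Tnfrsf11b and Tnfrsf22 did not.

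Fasl, the Fas ligand of cytotoxic lymphocytes, read 4.36 and 4.43 in the 2 Nemo/TRAIL dKO arrays, 4.45, 4.43 and 4.45 in Nemo/TNFR1 dKO, 4.37, 4.43 and 4.40 in Nemo KO and 4.46, 4.43 and 4.38 in WT. All groups overlapped. The 11 arrays spanned 0.11 log2 units, and 0.273% of all probe sets had a smaller range. The mean signal of its probe set lay at percentile 20.0 of all probe sets, a placing on the array and not a measure of transcript number. The largest of its 6 differences was -0.05 (Nemo/TRAIL dKO minus Nemo/TNFR1 dKO, interval -0.19 to 0.09, adjusted p = 1).

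Lymphocyte markers were measured beside the ligands. Of 18 T and NK cell markers 2 rose in Nemo/TRAIL dKO against WT, 5 in Nemo/TNFR1 dKO and 1 in Nemo KO. None fell, and the medians were 0.04, 0.14 and 0.10 log2 units. Over all probe sets 7.55%, 9.18% and 9.29% were called in these comparisons. The counts in Nemo/TRAIL dKO and Nemo KO were near those shares. The summed level of the list was 0.16 above the WT mean in both Nemo/TRAIL dKO arrays, 0.15 to 0.36 above it in Nemo/TNFR1 dKO and 0.10 to 0.20 above it in Nemo KO, against -0.02 to 0.03 in WT. Those that rose in Nemo/TNFR1 dKO were the cytotoxic granule genes Nkg7 (1.10 ± 0.17) and Gzmb (0.58 ± 0.12), the T cell receptor components Cd3g (0.86 ± 0.17) and Cd3e (0.48 ± 0.13) and the interleukin receptor chain Il2rb (0.60 ± 0.15), each with its SE. Nkg7 also rose in Nemo/TRAIL dKO (0.94 ± 0.19) and Nemo KO (0.72 ± 0.17), and the NK receptor Klrk1 in Nemo/TRAIL dKO (0.43 ± 0.10). Of the 11 fits that each omit an array, Cd3e was called in 1, Il2rb in 2 and Gzmb in 10 for Nemo/TNFR1 dKO. Nkg7 was called in 8 of them for Nemo/TRAIL dKO and in 5 for Nemo KO. The Klrk1 call held in 8 of these fits and under 4 of the 6 other settings that kept its probe set. Its mean signal lay low, at percentile 17.0 of all probe sets. With an array omitted the count of this list was 0 to 2 in Nemo/TRAIL dKO, 2 to 4 in Nemo/TNFR1 dKO (2 without its replicate 3) and 0 to 2 in Nemo KO. It was 0 in Nemo/TRAIL dKO without its replicate 2 or WT replicate 2, and 0 in Nemo KO when WT replicate 1, 2 or 3 or Nemo KO replicate 1 or 3 was omitted. In bulk tissue a change in the number of cells of a type and a change in RNA per cell cannot be told apart.

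Tnfrsf10b, the TRAIL death receptor, read 7.57 and 7.65 log2 units in the 2 Nemo/TRAIL dKO arrays, 7.51, 8.09 and 7.96 in Nemo/TNFR1 dKO, 7.50, 7.99 and 8.11 in Nemo KO and 6.18, 6.33 and 6.23 in WT. Every Nemo-deficient array was above every WT array by more than 1 log2 unit, and the 3 Nemo-deficient genotypes overlapped. Its range over the arrays, 1.93 log2 units, was larger than that of 97.5% of probe sets. The WT arrays lay close together (6.25 ± 0.08, SD, n = 3), and the arrays of Nemo/TNFR1 dKO (7.85 ± 0.30, n = 3) and Nemo KO (7.87 ± 0.32, n = 3) were spread more widely than those of Nemo/TRAIL dKO (7.61 ± 0.05, n = 2).

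Against WT, Tnfrsf10b rose 2.57-fold in Nemo/TRAIL dKO (95% interval 1.89 to 3.50, adjusted p = 0.00401), 3.04-fold in Nemo/TNFR1 dKO (interval 2.31 to 4, adjusted p = 0.000909) and 3.07-fold in Nemo KO (interval 2.34 to 4.04, adjusted p = 0.000884). All 3 calls held when any of the 11 arrays was omitted, WT replicate 3 included, and under all 7 other settings. Loss of the ligand or of TNFR1 on top of Nemo gave no called change of the receptor. Nemo/TRAIL dKO minus Nemo KO was -0.26 log2 units (interval -0.70 to 0.19, adjusted p = 1), Nemo/TNFR1 dKO minus Nemo KO was -0.01 (interval -0.41 to 0.38, adjusted p = 0.993), and Nemo/TRAIL dKO minus Nemo/TNFR1 dKO was -0.24 (interval -0.68 to 0.20, adjusted p = 1). These intervals leave room for a fall to 0.62-fold of the Nemo KO level for Nemo/TRAIL dKO and to 0.75-fold for Nemo/TNFR1 dKO.

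**Figure D2:**
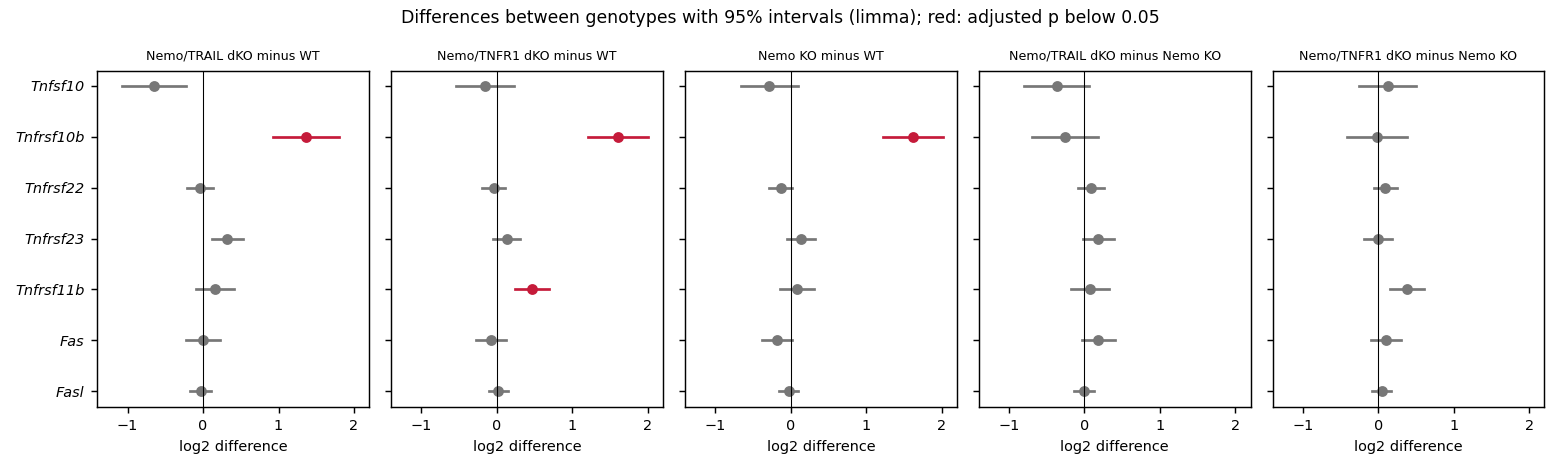
Log2 difference between genotypes (horizontal axis) for each of the 7 genes (vertical axis) in 5 of the 6 comparisons, with points for the estimate, bars for the 95% interval of the limma fit over all arrays and red for an adjusted p below 0.05. Tnfrsf10b stands at 1.36, 1.60 and 1.62 against WT and at -0.26 and -0.01 for the double knockouts against Nemo KO, and Tnfrsf11b is red only in Nemo/TNFR1 dKO minus WT, at 0.46.

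Tnfrsf10b is a known target of p53, and some other p53 targets rose too. A link between these rises was not tested. Fas, also a known p53 target, was called in no comparison. Of 15 measured p53 targets (the list leaves out Tnfrsf10b and Fas) 6 rose and none fell in Nemo/TRAIL dKO, 7 rose and none fell in Nemo/TNFR1 dKO, and 9 rose and 1 fell in Nemo KO, all against WT, with medians of 0.70, 0.60 and 0.70 log2 units. Beside these counts, 7.55%, 9.18% and 9.29% of all probe sets were called. Eda2r, a receptor for ectodysplasin A2, rose by 1.97 ± 0.28, 1.77 ± 0.25 and 1.45 ± 0.25 (SE) in these comparisons, and Phlda3, which dampens AKT signalling, by 1.58 ± 0.17, 1.54 ± 0.15 and 1.24 ± 0.15. Gtse1, a cell cycle protein that acts on p53, rose by 0.998 ± 0.19, 1.13 ± 0.17 and 0.98 ± 0.17. The antiproliferative gene Btg2 rose by 1.75 ± 0.41 in Nemo KO, a call that held in 6 of the 11 fits that each omit an array. Bbc3, the pro-apoptotic PUMA, was the gene that fell (by 0.38 ± 0.09 in Nemo KO). Its call also held in 6 of those 11 fits, and under 5 of the 7 other settings. Without WT replicate 3 the counts of p53 targets that rose were 5, 6 and 6. The summed level of the list was 0.77 above the WT mean in both Nemo/TRAIL dKO arrays, 0.49 to 0.90 above it in Nemo/TNFR1 dKO and 0.69 to 0.79 above it in Nemo KO, against -0.11 to 0.06 in WT.

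Markers of other liver cells moved with Tnfrsf10b as well, and their part in its rise was not tested. Of 14 stellate cell and fibroblast markers 11 rose in Nemo/TRAIL dKO, 12 in Nemo/TNFR1 dKO and 13 in Nemo KO against WT, and none fell, with medians of 1.06, 1.18 and 1.26 log2 units. Their summed level was 0.91 to 1.14 above the WT mean in Nemo/TRAIL dKO, 0.85 to 1.34 above it in Nemo/TNFR1 dKO and 1.07 to 1.29 above it in Nemo KO, against -0.20 to 0.23 in WT. Of 13 macrophage markers 9 rose and 1 fell in Nemo/TRAIL dKO, while 10 rose and none fell in each of Nemo/TNFR1 dKO and Nemo KO. For both lists the shares called over all probe sets were 7.55%, 9.18% and 9.29% in Nemo/TRAIL dKO, Nemo/TNFR1 dKO and Nemo KO. The macrophage level was 1.25 to 1.27 above the WT mean in Nemo/TRAIL dKO, 1.14 to 1.33 in Nemo/TNFR1 dKO and 1.07 to 1.38 in Nemo KO, against -0.05 to 0.07 in WT. The macrophage marker that fell was Timd4, a phagocytic receptor of resident Kupffer cells (by 0.53 ± 0.14, a call that held in 4 of the 11 fits that each omit an array). Mmp12, the macrophage elastase, rose by 3.97 ± 0.25, 3.75 ± 0.22 and 3.37 ± 0.22, and Gpnmb, a glycoprotein of lipid-laden macrophages, rose by 3.74 ± 0.28, 3.86 ± 0.25 and 3.38 ± 0.25. Omitting Nemo/TRAIL dKO replicate 1 leaves a lone array that is assumed to vary like the other groups. In that fit 4 stellate cell, 6 macrophage and 4 p53 genes rose in that genotype. Without WT replicate 3 the counts that rose were 11, 12 and 12 of the stellate cell and 7, 8 and 9 of the macrophage markers.

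Genes whose pattern over the 11 arrays was nearest to that of Tnfrsf10b were sought among all single-symbol probe sets, each centred on its own mean. The nearest were C3ar1, the receptor for the complement fragment C3a, Nid1, a basement membrane protein, and Robo2, a guidance receptor, with root mean square differences of 0.11, 0.12 and 0.14 log2 units, where the values of Tnfrsf10b itself departed from their mean by 0.72. C3ar1 averaged 8.93 in Nemo/TRAIL dKO, 9.10 in Nemo/TNFR1 dKO and 9.07 in Nemo KO, against 7.51 in WT. These are descriptions over arrays that share their genotypes.

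Fas, the receptor for Fas ligand, read 7.56 and 7.63 in the 2 Nemo/TRAIL dKO arrays, 7.59, 7.50 and 7.45 in Nemo/TNFR1 dKO, 7.44, 7.57 and 7.23 in Nemo KO and 7.57, 7.64 and 7.57 in WT. The Nemo KO arrays reached lowest, and all groups touched or overlapped. Nemo KO minus WT was -0.18 ± 0.09 log2 units (SE, interval -0.38 to 0.02, adjusted p = 0.240). Nemo/TRAIL dKO minus WT was 0.00 (interval -0.22 to 0.22, adjusted p = 0.995), and Nemo/TNFR1 dKO minus WT was -0.08 (interval -0.28 to 0.12, adjusted p = 0.649). The upper limits of these intervals, 0.02 to 0.22 log2 units, lie below the lower limits for Tnfrsf10b in the same arrays, 0.92 to 1.22. Between Nemo-deficient genotypes the differences of Fas ran from 0.08 to 0.18 and did not pass (adjusted p = 0.855 to 1).

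Tnfrsf22 and Tnfrsf23, the decoy receptors, are neighbouring paralogs with Tnfrsf26 beside Tnfrsf22 in RefSeq, and cross-hybridisation between such copies was not tested. Tnfrsf22 read 6.63 and 6.71 in the 2 Nemo/TRAIL dKO arrays, 6.70, 6.66 and 6.66 in Nemo/TNFR1 dKO, 6.62, 6.46 and 6.66 in Nemo KO and 6.66, 6.75 and 6.73 in WT. All groups overlapped or touched, and the largest of the 6 differences was -0.13 (Nemo KO minus WT, interval -0.28 to 0.02, adjusted p = 0.268). Tnfrsf23 read 6.26 and 6.27 in the 2 Nemo/TRAIL dKO arrays, 6.21, 6.06 and 5.96 in Nemo/TNFR1 dKO, 6.03, 6.02 and 6.19 in Nemo KO and 6.02, 5.90 and 5.91 in WT. Both Nemo/TRAIL dKO arrays were above the other 9, and the arrays of the other genotypes overlapped or lay close. Relative to WT the Nemo/TRAIL dKO level was 0.32 ± 0.09 (SE, interval 0.12 to 0.52, adjusted p = 0.0653) and did not pass. It passed without Nemo/TNFR1 dKO replicate 1 (adjusted p = 0.0445) and under 2 of the 7 other settings. Against Nemo KO it was 0.19 (interval -0.02 to 0.39, adjusted p = 1). Tnfrsf26 differed from WT by 0.09, 0.14 and 0.04 in Nemo/TRAIL dKO, Nemo/TNFR1 dKO and Nemo KO (adjusted p = 0.585, 0.300 and 0.792).

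Some members had the same value to 6 decimals in several arrays: 6.66 in 4 arrays for Tnfrsf22, 4.43 in 4 for Fasl and 7.57 in 3 for Fas. Such repeats occur in 39.0% of all probe sets of the deposited table. For these 3 genes the number of distinct values, and with it the SD of a group, may be smaller than independent values would give, which was not tested.

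Tnfrsf11b, osteoprotegerin, read 7.39 and 7.68 in the 2 Nemo/TRAIL dKO arrays, 7.83, 7.98 and 7.71 in Nemo/TNFR1 dKO, 7.33, 7.52 and 7.52 in Nemo KO and 7.43, 7.41 and 7.29 in WT. All 3 Nemo/TNFR1 dKO arrays were above the other 8, while Nemo/TRAIL dKO, Nemo KO and WT overlapped. Nemo/TNFR1 dKO minus WT was 0.46 ± 0.10 log2 units (SE), a 1.38-fold rise (interval 1.18 to 1.61, adjusted p = 0.0208). The call was lost without WT replicate 2 (adjusted p = 0.0538), WT replicate 3 (0.0622) or Nemo/TNFR1 dKO replicate 2 (0.0765), and it held in the other 8 such fits. Against Nemo KO the difference was 0.38 ± 0.10 (interval 0.15 to 0.61, adjusted p = 0.496), and Nemo/TRAIL dKO minus Nemo/TNFR1 dKO was -0.30 (interval -0.56 to -0.05, adjusted p = 0.927). Neither passed over all probe sets, so the level of Tnfrsf11b is not shown to differ between Nemo-deficient genotypes. In Nemo KO it was 0.08 above WT (interval -0.15 to 0.31, adjusted p = 0.656) and in Nemo/TRAIL dKO 0.16 above WT (interval -0.10 to 0.41, adjusted p = 0.481).

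Stellate cells and fibroblasts are known sources of osteoprotegerin, and the rise of their markers in all 3 Nemo-deficient genotypes is given above. Tnfrsf11b was called in Nemo/TNFR1 dKO alone, and any link of its level to these cells was not tested. Lum, a matrix proteoglycan, rose by 1.90 ± 0.33, 1.96 ± 0.29 and 2.40 ± 0.29 log2 units (SE) in Nemo/TRAIL dKO, Nemo/TNFR1 dKO and Nemo KO, and the collagen gene Col1a1 by 1.66 ± 0.32, 1.82 ± 0.28 and 1.74 ± 0.28. The other ligand of osteoprotegerin, RANK ligand (Tnfsf11), differed from WT by -0.11, -0.07 and -0.18 and was not called (adjusted p = 0.567, 0.647 and 0.210). Its receptor RANK (Tnfrsf11a) rose in Nemo/TNFR1 dKO by 0.33 ± 0.08 (adjusted p = 0.0272) and in Nemo KO by 0.30 ± 0.08 (adjusted p = 0.0410), and in Nemo/TRAIL dKO it differed by 0.29 ± 0.09 (adjusted p = 0.0741). The Nemo KO call of Tnfrsf11a held in 2 and the Nemo/TNFR1 dKO call in 8 of the 11 fits that each omit an array. The genes nearest to Tnfrsf11b in pattern were the proteasome subunit Psmb5, the replication protein Rpa1 and the mannosyltransferase Pomt1, with root mean square differences of 0.08 to 0.09, where Tnfrsf11b itself departed from its mean by 0.21.

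**Figure D3:**
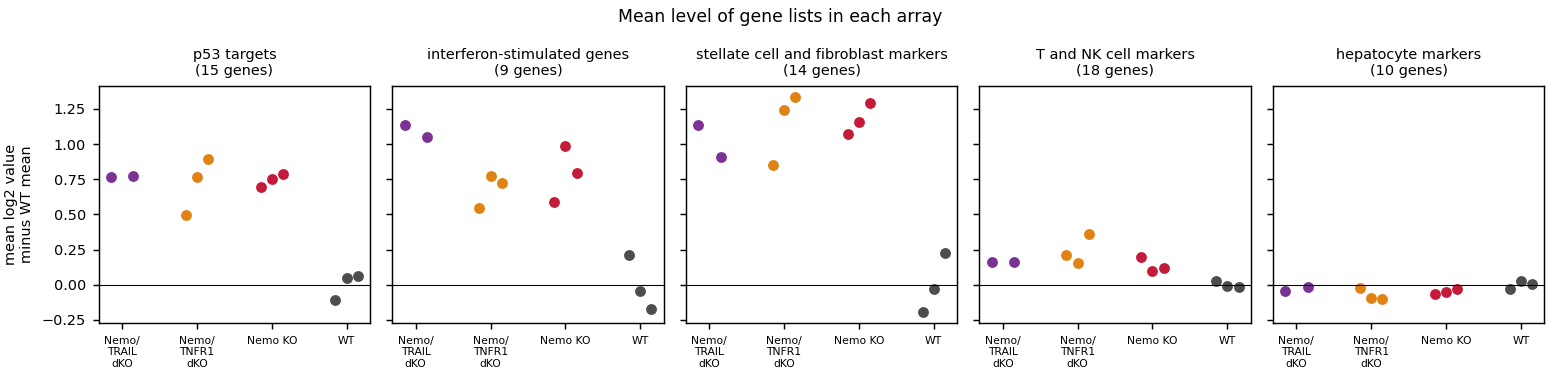
Mean log2 value of 5 gene lists in each array minus the WT mean (vertical axis) by genotype (horizontal axis), with a point for each array and a line at 0, the WT mean. The p53, interferon, stellate and T and NK cell lists of every Nemo-deficient array stand above all WT arrays. The stellate list reaches 1.34 units over the WT mean and the T and NK cell list 0.36, while the hepatocyte list stays between -0.10 and 0.02.

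The intracellular part of the death receptor pathway was compared with WT over 19 measured genes. In Nemo/TRAIL dKO 4 rose and none fell, in Nemo/TNFR1 dKO 4 rose and 1 fell, and in Nemo KO 3 rose and none fell. The medians were 0.01, 0.05 and 0.02 log2 units, and 7.55%, 9.18% and 9.29% of all probe sets were called. Apaf1, the scaffold of the apoptosome, rose by 0.80 ± 0.13, 0.70 ± 0.11 and 0.72 ± 0.11 (SE) in these comparisons. Pea15a, a death effector domain protein that can block FADD and caspase-8, rose by 0.74 ± 0.11, 0.71 ± 0.10 and 0.63 ± 0.10. Ptpn13, a phosphatase that binds the tail of Fas in human cells, rose by 0.36 ± 0.09, 0.31 ± 0.08 and 0.37 ± 0.08.

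Members of the mitochondrial branch moved both ways. The pore-forming Bak1 rose by 0.54 ± 0.14 (SE) for Nemo/TRAIL dKO and 0.50 ± 0.13 for Nemo/TNFR1 dKO, and in Nemo KO it differed by 0.42 ± 0.13 (adjusted p = 0.0719). Bid, the protein that caspase-8 cleaves to reach the mitochondria, fell by 0.53 ± 0.13 in Nemo/TNFR1 dKO (adjusted p = 0.0341). In Nemo/TRAIL dKO and Nemo KO Bid differed by -0.36 and -0.22 (adjusted p = 0.193 and 0.322). Of the 11 fits that each omit an array, Bak1 was called in 2 for Nemo/TRAIL dKO and 3 for Nemo/TNFR1 dKO, Bid in 5, and Ptpn13 in 3, 3 and 7 for the 3 genotypes. Apaf1 and Pea15a were called in all of them except the fit of Nemo/TRAIL dKO without its replicate 1, where none of the 19 genes was called. The count of 4 in Nemo/TRAIL dKO was 2 without its replicate 2, WT replicates 1 or 3, Nemo KO replicates 1 or 3, or Nemo/TNFR1 dKO replicate 2. The count of 4 in Nemo/TNFR1 dKO was 2 without WT replicate 3, any Nemo KO array, or Nemo/TNFR1 dKO replicates 2 or 3. In Nemo KO the count of 3 was 4 without WT replicate 3.

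The first steps below the receptors were not called. The adaptor Fadd differed from WT by -0.17, -0.10 and -0.18 log2 units in Nemo/TRAIL dKO, Nemo/TNFR1 dKO and Nemo KO (adjusted p = 0.168, 0.345 and 0.0954). The initiator Casp8 differed by 0.29, 0.13 and 0.28 (adjusted p = 0.104, 0.419 and 0.0689). Cflar, the inhibitor FLIP and a known NF-κB target, differed by -0.21, -0.21 and -0.20 (adjusted p = 0.120, 0.0714 and 0.0811). All 3 differences of Cflar were negative, and none passed. Ripk1 and Bax were not analysed here.

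**Figure D4:**
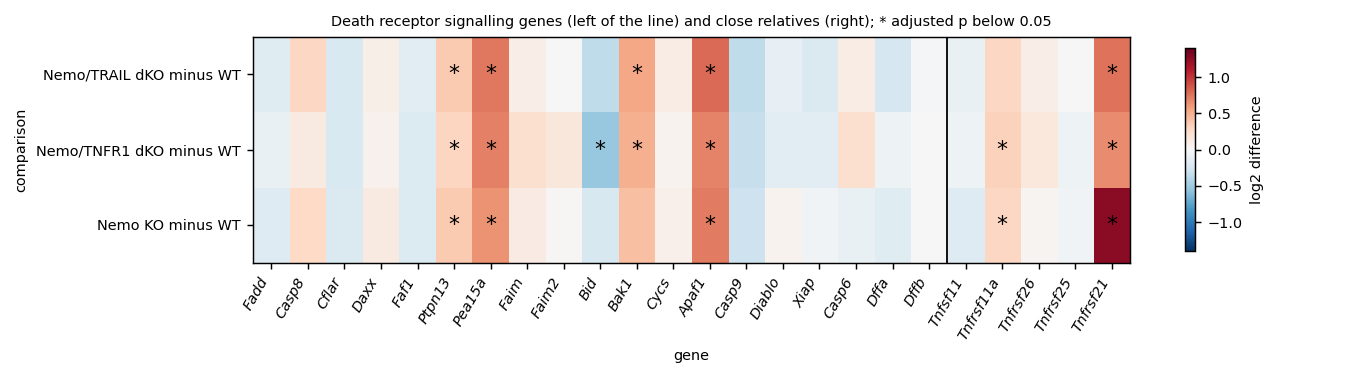
Log2 difference from WT (colour, red for higher and blue for lower) of 19 death receptor signalling genes, left of the black line, and 5 close relatives, right of it (horizontal axis), in each Nemo-deficient genotype (vertical axis), with a star for an adjusted p below 0.05. Apaf1, Pea15a, Ptpn13 and Tnfrsf21 carry a star in all 3 rows, and Tnfrsf21 reaches 1.26 in Nemo KO.

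A further death domain receptor, Tnfrsf21 (DR6), also rose in all 3 genotypes. It read 9.14 and 8.98 in the 2 Nemo/TRAIL dKO arrays, 8.93, 8.85 and 9.10 in Nemo/TNFR1 dKO, 9.49, 9.54 and 9.66 in Nemo KO and 8.50, 8.11 and 8.29 in WT. The 3 Nemo KO arrays were the highest of the 11 and the WT arrays the lowest. Against WT it rose by 0.76 ± 0.12 (SE, adjusted p = 0.00633) in Nemo/TRAIL dKO, 0.66 ± 0.11 (adjusted p = 0.00555) in Nemo/TNFR1 dKO and 1.26 ± 0.11 (adjusted p = 0.000426) in Nemo KO. The Nemo/TRAIL dKO call was lost in 1 of the 11 fits that each omit an array (adjusted p = 0.0701) and under 1 of the 7 other settings (adjusted p = 0.0573). Against Nemo KO its differences were -0.50 ± 0.12 in Nemo/TRAIL dKO (interval -0.78 to -0.23, adjusted p = 1) and -0.60 ± 0.11 in Nemo/TNFR1 dKO (interval -0.85 to -0.35, adjusted p = 0.281), and neither passed. Tnfrsf25 (DR3), which is expressed by T cells, differed from WT by 0.01, -0.07 and -0.05 (adjusted p = 0.973, 0.647 and 0.707).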

How the data were processed

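Each of 11 liver RNA samples was run on an Affymetrix mouse whole-transcript array. The deposited log2 values of 35556 probe sets were made by the authors with RMA, per the submitters' processing notes; its version and the genome build are not given in the sources used here. Of the probe sets 21789 carried exactly 1 symbol. Groups came from the sample titles. With R 4.3.3 and limma 3.58.1, a model with 1 mean for each of 4 genotypes was fitted to all arrays and probe sets with default empirical Bayes moderation. Two-sided p-values were adjusted by Benjamini-Hochberg over all probe sets in each of 6 comparisons, and intervals are 95% and unadjusted. Precision is limited by how few arrays there are, with a median SE of 0.10 log2 units for Nemo KO minus WT and 0.11 for Nemo/TRAIL dKO minus WT. The script was tested on simulated data. The 7 members and the 12 gene lists (148 entries, 134 measured) were chosen with earlier results of these data known. Lists are described by counts and medians with no set test. All members were named, and list members were named from those with the largest called differences (up to 4, or 8 for death receptor signalling, in each list and comparison) or for a role told beside a member, while the choice of Cd3e, Timd4 and Bbc3 followed a look at their values; the 3 genes nearest to each called member were named by the smallest root mean square difference. The alternatives were a variance trend, quantile normalization, median centring, a filter at the 25th percentile of the mean signal, only the 2 groups compared, a replicate block, single-symbol probe sets only, and each array left out in turn. Counts in the lists and over all probe sets were rerun under the same alternatives, which was chosen after seeing the data.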

Additional observations from a re-analysis of the deposited data

How the results depend on the processing

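Tnfrsf10b passed against WT under all 7 other settings and whichever of the 11 arrays was omitted (highest adjusted p 0.0367). Against WT in Nemo/TRAIL dKO the count of members called was 1, and it was 2 with the 25th percentile filter, 2 with the replicate block, 3 with single-symbol probe sets only and 1 to 2 with a single array left out. The added genes were Tnfsf10 (adjusted p = 0.00892 with the block, 0.0354 with single-symbol probe sets) and Tnfrsf23 (0.0494 with the filter, 0.0357 with single-symbol probe sets); fewer probe sets enter the adjustment in the filter and the single-symbol setting. In Nemo/TNFR1 dKO against WT the count of 2 was 1 to 2 with a single array left out. The filter removed Fasl, and no member had another probe set to try.

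Arrays of different genotypes with the same replicate number did not deviate together (correlations of -0.12 to 0.04). Nemo/TRAIL dKO replicates 1 and 2 are arrays 7 and 9, and the number between them is absent from the series. Matching by replicate number may therefore misplace replicate 2, so neither these correlations nor the replicate block can exclude a pairing of samples. Apart from that of Tnfsf10 the replicate block changed no member's call. In total 25 member differences changed sign under an alternative, none of them called and each of at most 0.125 log2 units in the main setting. With quantile normalization the difference from WT of Fasl was 0.0432 for Nemo KO and 0.0107 for Nemo/TRAIL dKO, Fas was -0.0389 in Nemo/TRAIL dKO against WT and Tnfrsf10b was 0.0046 in Nemo/TNFR1 dKO against Nemo KO. With median centring Fas was -0.0251 in Nemo/TRAIL dKO and Fasl -0.0063 in Nemo/TNFR1 dKO, both against WT. With the replicate block Fas was -0.0437 in Nemo/TRAIL dKO against WT and Tnfrsf22 was 0.0094 in Nemo/TRAIL dKO against Nemo/TNFR1 dKO.

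With a single array left out, in Nemo/TRAIL dKO against WT Fas ranged from -0.0334 to 0.0375 and Fasl from -0.0662 to 0.0035, and in Nemo/TNFR1 dKO against WT Fasl ranged from -0.0020 to 0.0398. For Nemo/TRAIL dKO against Nemo KO Tnfrsf11b ranged from -0.0652 to 0.219 and Fasl from -0.0407 to 0.0290. In Nemo/TNFR1 dKO against Nemo KO Tnfsf10 ranged from -0.0137 to 0.286, Tnfrsf10b from -0.198 to 0.157 and Tnfrsf23 from -0.0702 to 0.0521. Between the double knockouts Tnfrsf22 ranged from -0.0429 to 0.0349.

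Over all probe sets the counts called moved by more than 1.5 times as follows, with the cause not tested beyond the smaller sets fitted. With only the 2 groups compared they were 1244 in place of 2684 in Nemo/TRAIL dKO against WT, 1831 in place of 3263 in Nemo/TNFR1 dKO against WT, 9 in place of 17 between the double knockouts and 1 in place of 2 in Nemo/TRAIL dKO against Nemo KO, which was also 1 with the filter. With single-symbol probe sets they were 4 in place of 12 in Nemo/TNFR1 dKO against Nemo KO and 6 between the double knockouts. With a single array left out they ranged from 823 to 2884 and from 1926 to 3342 in Nemo/TRAIL dKO and Nemo/TNFR1 dKO against WT, from 1933 to 3549 in Nemo KO against WT (3304 with all arrays), from 0 to 5 in Nemo/TRAIL dKO against Nemo KO, and from 11 to 17 between the double knockouts.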

Other observations

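Other cell types of the liver were measured for comparison with the death ligands and receptors. Of 10 sinusoidal endothelial markers 2 rose and 1 fell in Nemo/TRAIL dKO, 1 rose in Nemo/TNFR1 dKO and none passed in Nemo KO, all against WT. The medians were 0.13, 0.07 and -0.04 log2 units. The shares called over all probe sets, for these and the lists below, were 7.55%, 9.18% and 9.29%. The endothelial genes called were Lyve1, a hyaluronan receptor (0.83 ± 0.16 for Nemo/TRAIL dKO, 0.80 ± 0.14 for Nemo/TNFR1 dKO, SE), Pecam1 (0.35 ± 0.09) and the VEGF receptor Kdr, which fell by 0.41 ± 0.09 in Nemo/TRAIL dKO. In Nemo/TRAIL dKO, of the 11 fits that each omit an array, Pecam1 was called in 1, Kdr in 6 and Lyve1 in 9, and no endothelial gene rose when replicate 1 or replicate 2 of that genotype was omitted. Without WT replicate 3 the endothelial counts were 2 up and 1 down, 1 and 1, and 1 and 1 in the 3 genotypes. Of 6 cholangiocyte markers the epithelial adhesion gene Epcam rose in Nemo/TRAIL dKO (1.03 ± 0.24, called in 6 of those 11 fits) and none passed in the other genotypes, with medians of 0.35, 0.25 and 0.27. None of 7 neutrophil and B cell markers passed in any of these comparisons, and their medians were -0.02, 0.00 and 0.08. The pancreatic acinar list, high in WT replicate 3, had medians of -2.14, -2.03 and -2.20 with that array and -0.27, -0.23 and -0.32 without it, and none of its 8 genes was called either way.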
